A study of Homo sapiens with 28 samples.

Results

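The RNA levels of 10 genes of the endoplasmic reticulum (ER) stress response were followed in SEM, a human B-cell acute lymphoblastic leukemia line with an MLL-AF4 fusion, over 28 RNA-seq libraries. The 10 genes are HSPA5, XBP1, DNAJB9, CRELD2, HERPUD1, SEC24D, MANF, HYOU1, PDIA4 and SDF2L1. They were taken by symbol from the per-library count files, and all 10 of the 57820 genes listed there were present. A further list of 43 genes of the amino acid response was set beside them, above all in WT SEM cells given indole-3-acetic acid (IAA).

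When unfolded proteins accumulate in the ER, the sensors IRE1, PERK and ATF6 start the unfolded protein response. IRE1 splices the mRNA of XBP1, and the spliced XBP1 factor together with cleaved ATF6 drives chaperones, folding enzymes and components of ER-associated degradation. PERK phosphorylates eIF2α and thereby raises translation of ATF4, which also answers amino acid shortage through the kinase GCN2 and drives ASNS, CHAC1, DDIT3 and TRIB3. The ATF4 genes are thus shared by both programs, and their level alone does not tell which of them moved. Gene-level counts cannot show the splicing of XBP1.

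The libraries fell into 2 sets, distinguished by the time of treatment. The 24 h set held CTCFAID2 cells with 1 µM 5-Ph-IAA (4 libraries) and without (4), and WT SEM cells with IAA (2) and without (2). CTCFAID2 cells carry endogenous CTCF fused to a miniAID degron and mClover3, with OsTIR1(F74G) from a lentivirus, in a line that also holds a doxycycline-inducible WT OsTIR1. The WT SEM cells have no degron, and the study's methods give doxycycline together with IAA for them, whereas the labels name the treatment as IAA only. The protocol label gives 10 µM 5-Ph-IAA where the sample titles give 1 µM. The 6 h set held 4 lines of CTCFAID2 cells with an added HA-tagged CTCF under doxycycline control, full length (WT) or lacking zinc finger 1 (DeltaZ1), zinc finger 10 (DeltaZ10) or the RNA-binding region (DeltaRBR). Each line was left untreated (2 libraries) or given auxin for 6 h (2 libraries), so the WT line at 6 h is not the WT line at 24 h. The labels name the agent at 6 h only as IAA, while the protocol label and the methods describe 5-Ph-IAA for CTCFAID2 cells. The agent, its dose and any doxycycline at 6 h are therefore not settled, nor is which form of OsTIR1 acted, and every 6 h value below carries that limit.

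Library totals lay between 25.8 and 60.7 M counts. The 8 measured B-lineage markers summed to 928 to 1447 CPM (counts scaled to a common library total, with TMM factors). DNTT among them stood at 0.24 to 0.69 CPM at 24 h and at 0.080 to 1.09 CPM at 6 h, and the others were present in every library. The 11 measured markers of T, myeloid, erythroid and stromal cells summed to at most 5.41 CPM, and CD3D and HBA1 stood at 0 throughout. Separate cultures are not stated for the libraries of a group, so the p-values rest on a spread that may be technical. In bulk RNA fewer cells of a type and less RNA per cell cannot be told apart. CTCF mRNA was 148 ± 3.18 CPM (SD, n = 4) in untreated and 253 ± 3.04 CPM (n = 4) in treated CTCFAID2 cells. The degron acts on the protein, so this mRNA does not check the depletion.

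The promoters of these genes are shown first because factors of the unfolded protein response bind short sequences there. RefSeq promoter windows (GRCh38.p14, 250 bases before to 50 after the gene start) were found for 9 of the 10 genes. The ER stress response element (ERSE, CCAAT and CCACG with 9 bases between them) occurred on either strand in 3 of the 9 windows and in 0.0769% of 35116 promoters. The shorter ERSE-II (ATTGG and CCACG with 1 base between them) occurred in 3 others, of which HYOU1 held it at 2 places, and in 0.0541% of promoters. Each sequence below is read 5′ to 3′ on the strand of its gene, with the element in capitals. In CRELD2, SDF2L1 and HYOU1 the element lies in the opposite orientation, so its reverse complement is capitalised.
HSPA5 (ERSE, chr9:125241386-125241414, minus strand): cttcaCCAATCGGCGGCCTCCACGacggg
XBP1 (ERSE, chr22:28800598-28800626, minus strand): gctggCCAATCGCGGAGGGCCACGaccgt
CRELD2 (ERSE, chr22:49918549-49918577, plus strand): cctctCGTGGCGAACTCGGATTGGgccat
HERPUD1 (ERSE-II, chr16:56932020-56932040, plus strand): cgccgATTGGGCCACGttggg
SDF2L1 (ERSE-II, chr22:21642109-21642129, plus strand): ggaagCGTGGACCAATcaaaa
HYOU1 (ERSE-II, chr11:119057375-119057395, minus strand): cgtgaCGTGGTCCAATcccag
HYOU1 (ERSE-II, chr11:119057269-119057289, minus strand): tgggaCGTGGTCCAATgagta

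The element through which ATF4 acts with C/EBP proteins, searched as TGATGNAA on either strand, was held by 3.62% of all promoters. Among the 9 windows it occurred in HERPUD1 only, and among the 35 amino acid response genes with a window it occurred in 13, ASNS and CHAC1 included. The HERPUD1 match is shown as the only one in the 9 windows, and it is capitalised as its reverse complement.
HERPUD1 (TGATGNAA, chr16:56931961-56931978, plus strand): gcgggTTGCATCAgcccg
The UPRE core TGACGTGG was found in HYOU1, where it overlaps an ERSE-II, and in 0.729% of promoters. MANF, DNAJB9 and PDIA4 held none of these letters in the window, which says nothing about other positions. A match is a description of the sequence and not evidence of binding.

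Levels of different genes were compared as TPM, the share of transcripts scaled to a fixed total, which accounts for transcript length. Over the 14 untreated libraries the median was highest for XBP1 at 69.6 TPM (range 58.3 to 84.1), and its range lay above that of every other member. PDIA4, an ER protein disulfide isomerase, followed at 21.8 TPM (16.6 to 26.1), with MANF, a secreted factor retained in the ER, at 19.1 TPM (13.1 to 25.3). HYOU1, an ER nucleotide exchange factor and chaperone, had 15.95 TPM (12.7 to 21.2), HSPA5, the ER Hsp70 chaperone BiP, 14.9 TPM (11.8 to 20.6) and HERPUD1, a membrane component of ER-associated degradation, 13.2 TPM (9.99 to 15.98). SDF2L1, a partner of ER Hsp40 proteins, had 8.54 TPM (6.22 to 12.7), and CRELD2, an ER-resident protein with EGF-like domains, 3.40 TPM (2.63 to 4.39). SEC24D, a cargo adaptor of the COPII coat that carries proteins out of the ER, had 3.16 TPM (2.30 to 4.71) and DNAJB9, an ER Hsp40 co-chaperone, 1.93 TPM (1.45 to 2.31). Neighbours in this order overlapped in their ranges throughout, except XBP1 against PDIA4 and SDF2L1 against CRELD2.

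The comparison of WT SEM cells with and without IAA asks what the auxin regimen does where no CTCF degron is present. Of the 10 genes, HERPUD1 rose and HSPA5 fell, and the other 8 did not pass the test. HERPUD1 (hg19 chr16:56966054-56978776, plus strand) stood at 37.3 and 34.6 CPM without and at 64.5 and 65.6 CPM with IAA. The groups did not overlap, and the log2 fold change was 0.86 ± 0.052 (SE), a rise of 80.9% (limma-voom, adjusted p = 8.27e-08). HSPA5 (hg19 chr9:127997132-128003661, minus strand) stood at 135 and 141 CPM without and at 102 and 97.8 CPM with IAA. Both treated libraries lay below both untreated ones, and HSPA5 fell by 27.5% (log2 fold change -0.46 ± 0.074, limma-voom adjusted p = 0.000703).

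The member count of 1 higher and 1 lower stood beside 9.35% of all 13973 tested genes called higher and 9.57% called lower at an adjusted p of at most 0.05. The median log2 fold change of the 10 genes was 0.08, against 0.015 for all genes. The treated libraries lay above the untreated ones for 5 members and below for 2, which with 2 libraries a group also held for 31.2% and 28.0% of all genes. XBP1 gave 0.11 ± 0.040 (limma-voom adjusted p = 0.0641), CRELD2 0.21 ± 0.086 (0.103) and DNAJB9 0.22 ± 0.12 (0.234) on the log2 scale. XBP1 passed the test when CTCFAID2 untreated replicate 4 was left out of the shared fit (adjusted p = 0.0439). HYOU1, PDIA4, SDF2L1, MANF and SEC24D had log2 fold changes between -0.05 and 0.10, and the 95% interval of each included 0. The share of counts from the mitochondrial genome also moved in these cells, from 0.368 and 0.333% without to 0.257 and 0.222% with IAA, and its part in the fall of HSPA5 was not tested.

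**Figure D1:**
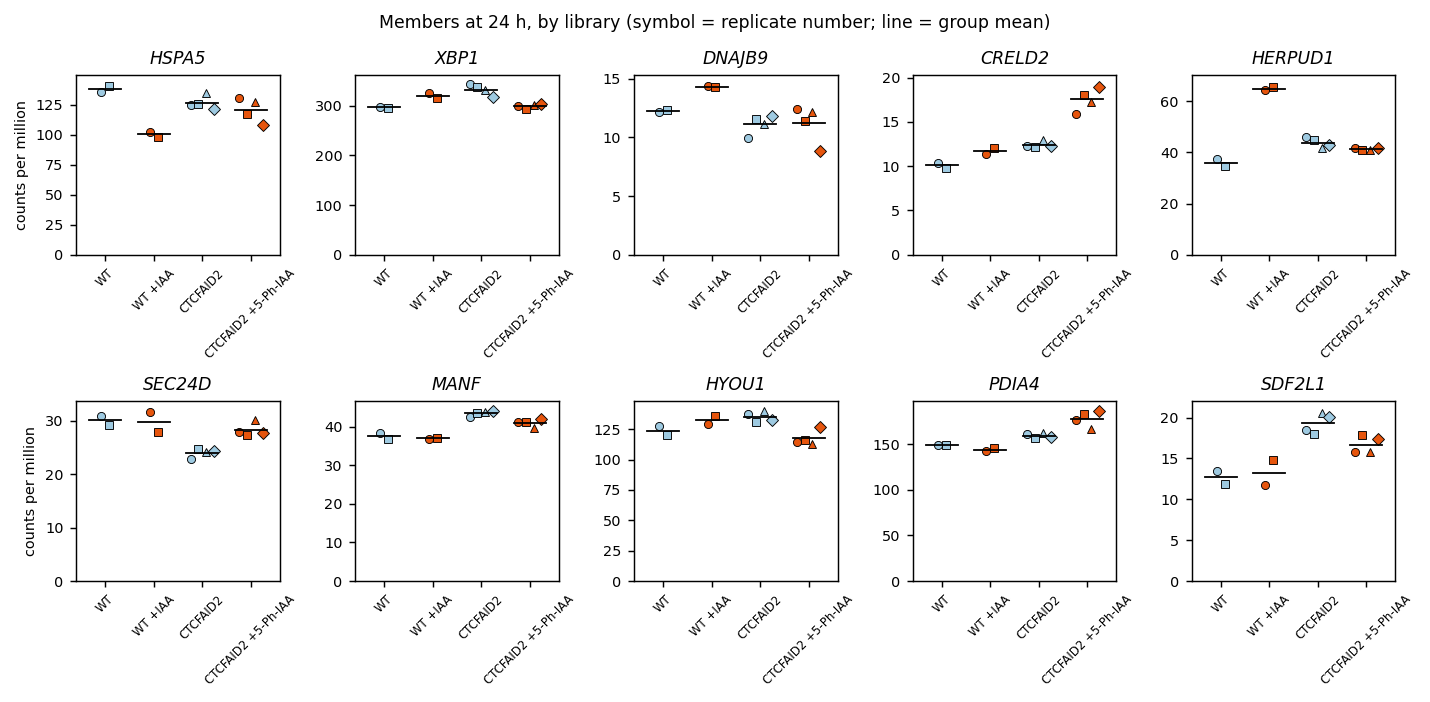
CPM (vertical axes from 0) of the 10 genes in the 12 libraries of the 24 h set, each point 1 library with its symbol giving the replicate number, blue untreated and orange treated, the line the group mean. HERPUD1 was at 64.5 and 65.6 CPM in the WT libraries with IAA and at most 46.1 CPM in all others, and HSPA5 was lower in both of these WT libraries than in the other 10.

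The amino acid response genes moved differently in the same 4 libraries. That list, like the members, was chosen with earlier results of these data known, so its counts and medians here and below are a description. Of 41 tested, 40 rose and 1, ALDH18A1 (-0.16, named after its value was seen), fell, with a median log2 fold change of 0.72 and 11 called and past a 2-fold change, which held for 1.1% of all genes and for none of the 10 members. ASNS, asparagine synthetase, went from 69.7 ± 1.28 to 158 ± 7.31 CPM (SD, n = 2 each; log2 fold change 1.18 ± 0.054, limma-voom adjusted p = 7.16e-09). CHAC1, a glutathione-degrading enzyme, went from 6.36 ± 0.24 to 24.1 ± 0.89 CPM (log2 fold change 1.92 ± 0.086). TRIB3, a pseudokinase that feeds back on ATF4, had a log2 fold change of 1.38 ± 0.079, and DDIT3, the factor CHOP, one of 1.03 ± 0.086. SLC7A11, the cystine transporter, had 1.71 ± 0.077 and DDIT4, an inhibitor of mTORC1, 0.87 ± 0.040. HERPUD1, at 0.86, lay just below the lowest of these named values and above the median of 0.72 over the 41 genes. The next highest member, DNAJB9 at 0.22, did not reach the test's threshold. ATF4 mRNA itself rose by 51.5%.

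**Figure D2:**
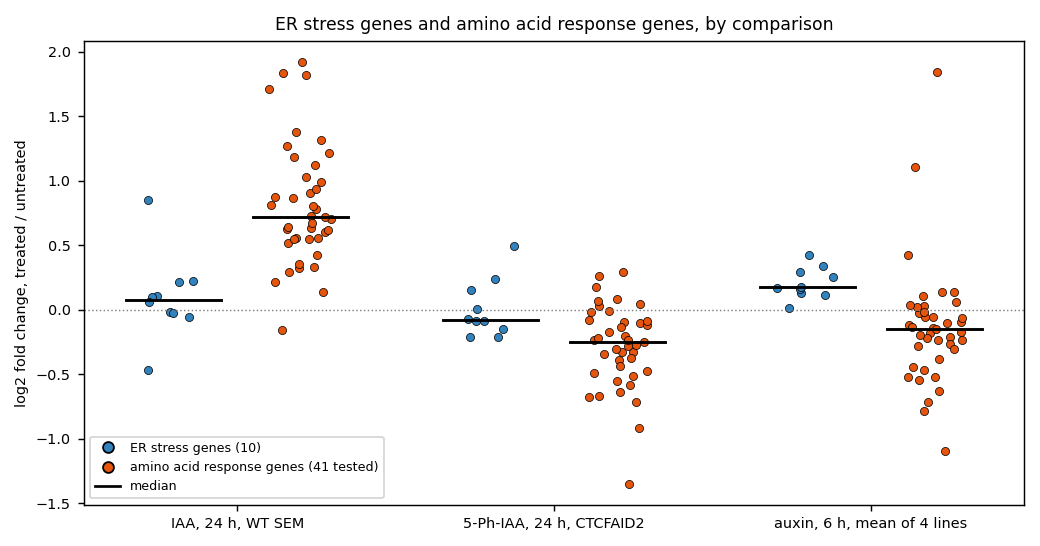
Log2 fold change of treated over untreated libraries (vertical axis) for the 10 ER stress genes (blue) and the 41 tested amino acid response genes (orange) in 3 comparisons, with black bars for the medians. In WT SEM cells given IAA the medians were 0.08 and 0.72, and at 6 h they were 0.17 and -0.15.

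Other ER gene lists were counted in the same comparison. Of 10 genes for sensors and factors of the unfolded protein response 2 rose, ATF4 and ERN1, which encodes IRE1 (0.49 ± 0.12, limma-voom adjusted p = 0.0143). Of 17 genes of ER-associated degradation 5 rose, among them EDEM1, a lectin that extracts misfolded glycoproteins (0.32), VIMP (0.26), DERL3 (0.26) and UBE2J1 (0.14). Of 18 further folding genes 1 fell, HSP90B1, the ER Hsp90 paralog (-0.13). Of 23 tested genes for translocation and transport 4 fell, SEC24B, KDELR2, SRPR and SEC23B, with log2 fold changes from -0.17 to -0.15. Several of these calls did not hold with 1 library left out at a time, since KDELR2 and UBE2J1 lost theirs in 10 of 12 fits, SRPR and SEC23B in 7 and HSP90B1 in 6. None of the 8 tested paralogs of the members was called by limma-voom, edgeR or DESeq2, and 2 had an unadjusted p below 0.05, HERPUD2 and HSPH1 (-0.11). PDIA3, 1 of these paralogs, was also counted among the folding genes. HERPUD2 had a log2 fold change of 0.23 (adjusted p = 0.124), and HSPA8, the cytosolic Hsp70, one of -0.01. Of 11 tested heat shock genes 2 rose, HSPA1B (0.37) and DNAJB1 (0.16), and 4 fell, HSP90AA1 (-0.45), HSP90AB1 (-0.29), HSPB1 (-0.30) and HSPA4 (-0.15). Of 7 mitochondrial stress genes HSPD1 (-0.27) and HSPE1 (-0.30) fell and LONP1 (0.20) rose, with the LONP1 call lost in 9 of 12 such fits. DERL3, HSPB1 and HSPA4 were named after their values were seen.

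In CTCFAID2 cells 24 h of 5-Ph-IAA, which removes CTCF, moved 7 of the 10 genes, in both directions and by small amounts. CRELD2, SEC24D and PDIA4 rose, and XBP1, HYOU1, SDF2L1 and MANF fell. Of all tested genes 29.2% were called higher and 29.5% lower, so a member count of 3 and 4 of 10 lay near the background. CRELD2 (hg19 chr22:50311815-50321188, plus strand) stood at 12.2, 12.1, 12.9 and 12.3 CPM without and at 15.9, 18.0, 17.3 and 18.9 CPM with 5-Ph-IAA. Its groups did not overlap, and it rose by 40.9% (log2 fold change 0.50 ± 0.053, limma-voom adjusted p = 2.19e-06). The neighbouring ALG12 overlaps CRELD2 on the opposite strand, and since it is not stated whether the counting used strand, their reads may be mixed. Marker sums moved in the same libraries without overlap, from 1133 to 1159 CPM up to 1304 to 1337 CPM for the 8 B-lineage markers, from 169.6 to 174 up to 183 to 193 CPM for the 7 plasma cell markers and from 1.84 to 2.71 up to 3.40 to 3.99 CPM for the 11 markers of other cells. Among the plasma cell markers CD38 went from 21.6 to 23.3 up to 35.9 to 40.2 CPM. MZB1 went from 51.8 to 54.4 up to 54.6 to 59.9 CPM. IRF4 overlapped (94.6 to 98.1 without and 87.2 to 98.2 CPM with 5-Ph-IAA), and PRDM1, SDC1, IGJ and TNFRSF17 were at most 0.48 CPM. CD68 made up most of the other-cell sum, at 1.31 to 2.07 and 2.45 to 3.24 CPM. These single markers were named after their values were seen. The share of counts from RN7SK and 7SL RNA was 10.8 to 11.5% without and 9.20 to 10.6% with 5-Ph-IAA. The part of these shifts in the members' changes was not tested.

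SEC24D (hg19 chr4:119643978-119759838, minus strand) stood at 22.8 to 24.7 CPM without and at 27.3 to 30.2 CPM with 5-Ph-IAA, a rise of 17.9% (limma-voom adjusted p = 0.00071). PDIA4 rose by 11.4% (log2 fold change 0.16 ± 0.033), from 157 to 163 CPM in untreated to 167 to 186 CPM in treated libraries. HYOU1 fell by 13.3%, from 131 to 140 CPM down to 113 to 127 CPM, and XBP1 by 9.93%, from 317 to 343 CPM down to 293 to 304 CPM. With SDF2L1 and MANF, 3 members lay higher and 4 lower in every treated than in every untreated library, beside 26.0% and 26.6% of all genes. SDF2L1 fell by 0.21 on the log2 scale (limma-voom adjusted p = 0.018) and MANF by 0.09 (0.0243). The SDF2L1 call was lost without either the treated or the untreated replicate 3 (adjusted p = 0.0543 and 0.0561), and the MANF call without either of these or without untreated replicate 2 (0.0511 to 0.0757).

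HERPUD1 and HSPA5, which moved in WT cells, did not pass the test in CTCFAID2 cells. HERPUD1 stood at 46.1, 44.9, 41.7 and 42.7 CPM without and at 41.6, 41.1, 40.8 and 41.7 CPM with 5-Ph-IAA (log2 fold change -0.09 ± 0.036, limma-voom adjusted p = 0.0582). Leaving out any one of 6 libraries brought its adjusted p to between 0.0227 and 0.0378, with a log2 fold change of -0.11 to -0.10. HSPA5 stood at 121 to 134 CPM without and at 108 to 131 CPM with 5-Ph-IAA, and the groups overlapped (log2 fold change -0.07 ± 0.052, adjusted p = 0.271). DNAJB9 gave a log2 fold change of 0.01 ± 0.090.

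The amino acid response genes fell in the main here, 30 of 41, with 3 higher and a median log2 fold change of -0.25. The 3 higher genes, named after their values were seen, were PPP1R15A (0.29), VLDLR (0.27) and SESN2 (0.18). CHAC1 fell by 0.51, ASNS by 0.32, TRIB3 by 0.32 and DDIT3 by 0.25 on the log2 scale, and ATF4 by 0.16. ERN1 rose, from 6.77 ± 0.74 to 10.7 ± 0.68 CPM (SD, n = 4 each, log2 fold change 0.66 ± 0.078, limma-voom adjusted p = 5.73e-06). Of the paralogs of the members HSPA9, the mitochondrial Hsp70 (-0.52), HSPH1 (-0.47), HSPA8 (-0.21) and CRELD1 (-0.21) fell, and HERPUD2 (0.24) and PDIA3 (0.15) rose.

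**Figure D3:**
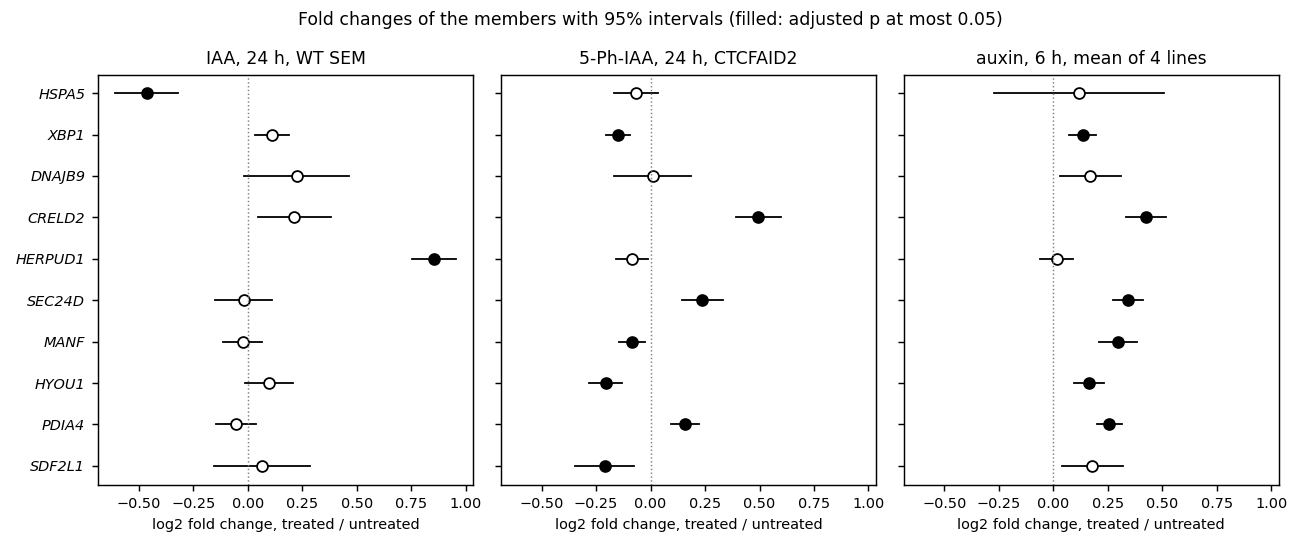
Log2 fold change with its 95% interval for each of the 10 genes (rows) in 3 comparisons (panels), treated over untreated, filled points at an adjusted p of at most 0.05. HERPUD1 lay at 0.86 in WT SEM cells given IAA and within 0.1 of 0 in the other panels, and all 10 points of the 6 h panel lay above 0.

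The difference between both 24 h effects was tested in the same fit. It compares a line with its regimen against another line with another regimen, so line, agent, dose and doxycycline cannot be told apart. The WT libraries also differ in how many counts are not whole (2.73 to 2.82% of values against 7.08 to 7.84%). The effect in WT cells exceeded that in CTCFAID2 cells for HERPUD1 by 0.94 ± 0.063 on the log2 scale (limma-voom adjusted p = 5.96e-08), for HYOU1 by 0.30 ± 0.068 and for XBP1 by 0.26 ± 0.048. It was smaller for HSPA5 (-0.40 ± 0.090, adjusted p = 0.00317), CRELD2 (-0.28 ± 0.10), SEC24D (-0.26 ± 0.083) and PDIA4 (-0.21 ± 0.058). These 3 higher and 4 lower of 10 stood beside 20.9% and 19.3% of all genes. All 41 amino acid response genes, a list chosen with earlier results known, differed in 1 direction, with a median of 0.98. Leaving out 1 library at a time, CRELD2 kept its call in 2 of 12 fits (adjusted p from 0.0105 to 0.162). SEC24D lost its call without CTCFAID2 untreated replicate 1, WT untreated replicate 1 or WT treated replicate 2 (up to 0.184). SDF2L1 gained one without WT treated replicate 1 (log2 difference 0.43, adjusted p = 0.0203).

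At 6 h the 4 lines were treated with auxin after doxycycline-controlled CTCF had been introduced, and their mean effect was taken first. Of the 10 genes 6 rose and 0 fell by limma-voom, while 25.1% of all 13902 tested genes were called higher and 26.4% lower. By edgeR and by DESeq2 7 rose and 0 fell, where 7120 and 6980 of all tested genes were called in either direction. The median log2 fold change of the 10 was 0.17, against -0.0094 over all genes. CRELD2 had a lowest, median and highest value of 8.95, 9.74 and 11.5 CPM in the 8 untreated and of 11.9, 13.1 and 14.4 CPM in the 8 treated libraries. No treated library reached down into the untreated range, and CRELD2 rose by 34.1% (log2 fold change 0.42 ± 0.047, limma-voom adjusted p = 1.92e-05).

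SEC24D had 22.2, 23.6 and 25.7 CPM untreated and 26.9, 30.7 and 31.8 CPM treated, a rise of 26.9% (limma-voom adjusted p = 1.11e-05). MANF went from 26.6, 32.0 and 33.2 CPM to 34.8, 38.3 and 43.4 CPM, a rise of 22.8%. PDIA4 went from 117, 123 and 126 CPM to 131, 145 and 156 CPM, a rise of 19.4%. HYOU1 rose by 11.9%, and like the 4 genes before it had no treated library within the untreated range. Such a separation of 8 against 8 libraries in the upward direction held for 5 of the 10 genes and for 9.8% of all genes. XBP1 rose by 9.73% (limma-voom adjusted p = 0.00449), with overlap, since WT treated replicate 2 (267 CPM) lay within the untreated range of 241 to 267 CPM.

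SDF2L1 (log2 fold change 0.18 ± 0.071, limma-voom adjusted p = 0.0506) and DNAJB9 (0.17 ± 0.071, 0.0625) came close to the threshold at 6 h. SDF2L1 passed it without any one of 4 libraries (adjusted p down to 0.00814 without DeltaZ1 treated replicate 2) and DNAJB9 without DeltaZ1 treated replicate 1 or DeltaZ10 treated replicate 1 (0.00235 and 0.0451). HERPUD1 had 36.2, 38.1 and 42.1 CPM untreated and 35.1, 39.3 and 42.1 CPM treated, with a log2 fold change of 0.01 and a 95% interval from -0.06 to 0.09. Its rise of 0.86 in WT SEM cells lay outside that interval. The time, line and agent differ between the sets, and no test was made across them.

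The amino acid response genes moved down at 6 h as well, with 25 of 41 lower and 4 higher and a median log2 fold change of -0.15. The 4 were ATF3 (1.84), PPP1R15A (1.11), DDIT3 (0.43) and CEBPG (0.14), all but DDIT3 named after their values were seen. CHAC1 fell by 0.78 on the log2 scale, while ASNS stood at -0.06 (limma-voom adjusted p = 0.228). Of the other ER lists 9 of 18 folding genes rose and 2, PDIA5 (-0.16) and TXNDC5 (-0.13), fell. Of 17 genes of ER-associated degradation 11 rose and 3 fell, DERL3 (-1.13), SYVN1 (-0.43) and EDEM1 (-0.23). Of 23 transport genes 9 rose and 3 fell, SEC16A, SEC63 and SEC24B. Among the sensors ATF6 (0.16), MBTPS1 (0.09) and CREB3 (0.47) rose and ERN1 (-0.24), CREB3L2 (-0.24) and CREBZF (-0.19) fell. Of 11 tested heat shock genes 6 rose and 2 fell, with a median of 0.17. Of the 8 tested paralogs of the members 4 rose, SDF2 (0.45), HSPH1 (0.30), HSPA8 (0.23) and PDIA3 (0.12). The fallen genes and the risen sensors were named after their values were seen, except EDEM1, ERN1 and SEC24B. Plasma cell markers summed to 176 to 195 CPM in untreated and to 118 to 141 CPM in treated libraries. PRDM1, SDC1, IGJ and TNFRSF17 were at most 0.67 CPM in all, and CD38 stood at 17.2 to 22.6 CPM over the 16 libraries. These single markers were named after their values were seen. Of 3 tested plasma cell markers 2 fell and 0 rose. Of 8 tested B-lineage markers 5 fell and 1 rose, beside 26.4% of all genes called lower and 25.1% higher. The part of these markers in the rise of the ER genes was not tested.

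**Figure D4:**
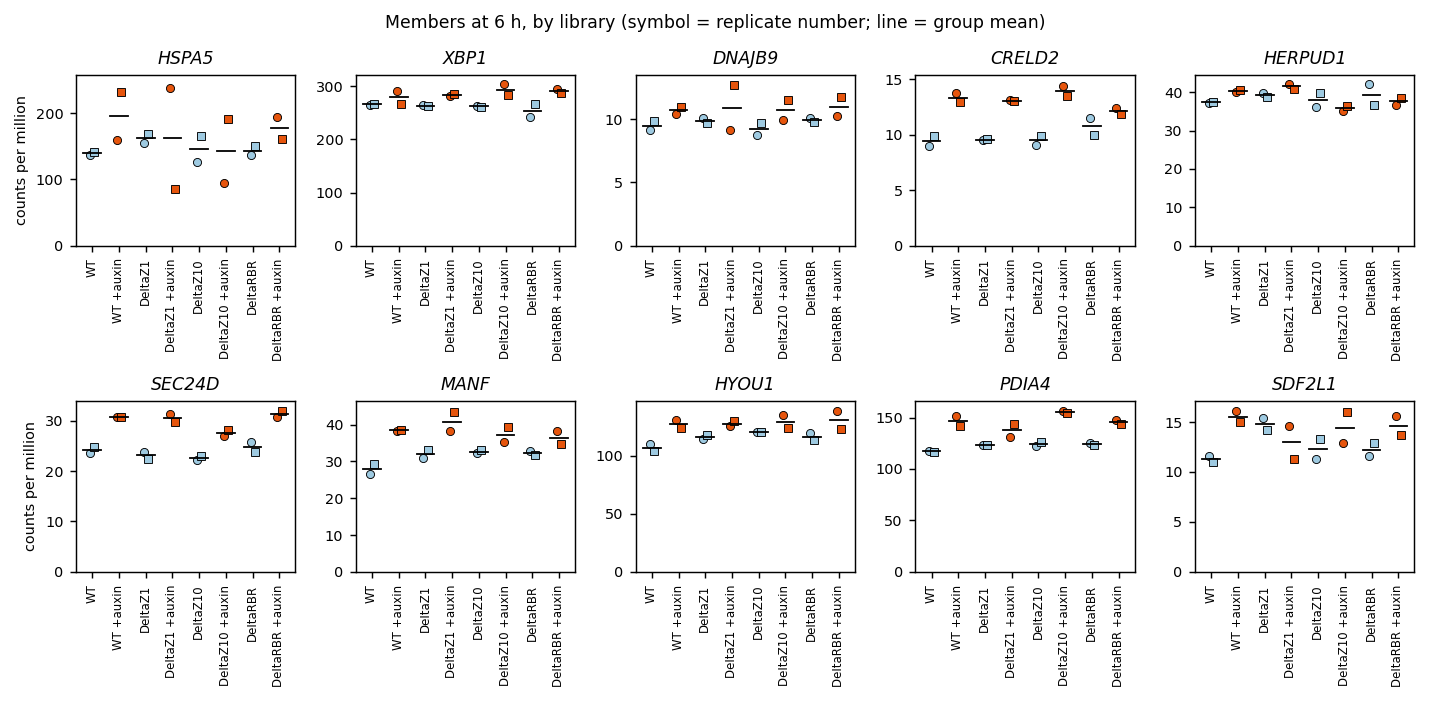
CPM (vertical axes from 0) of the 10 genes in the 16 libraries of the 6 h set, each point 1 library with its symbol giving the replicate number, blue untreated and orange treated, the line the group mean. CRELD2, SEC24D, MANF, HYOU1 and PDIA4 were higher in every treated than in every untreated library, and HSPA5 ranged from 86.2 to 238 CPM among the treated libraries.

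Line by line, with 2 libraries against 2, the 10 genes gave 13 calls out of 40, all upward. By edgeR's quasi-likelihood test there were 13 and by DESeq2 16, again with 0 downward. The share of all genes called in each line was counted for limma-voom only, so these 2 counts have no background beside them. In the WT line 5 genes rose (PDIA4, MANF, CRELD2, SEC24D and HYOU1), beside 6.45% of all genes called higher and 7.21% lower. In DeltaZ1 3 rose (SEC24D, CRELD2 and MANF, beside 17.1% higher and 16.4% lower), in DeltaZ10 3 (CRELD2, PDIA4 and SEC24D, beside 8.88% and 9.24%) and in DeltaRBR 2 (SEC24D and PDIA4, beside 4.8% and 5.68%). SEC24D passed in all 4 lines, with log2 fold changes of 0.345 in WT, 0.40 in DeltaZ1, 0.28 in DeltaZ10 and 0.345 in DeltaRBR, but not with every library left out in turn. The call was lost in WT without untreated replicate 1 or either treated replicate, in DeltaZ10 without either untreated replicate or treated replicate 2, and in DeltaRBR without replicate 2 of either group (adjusted p from 0.0512 to 0.1002). HYOU1 lost its call in WT in 10 of 16 fits, those without any of the 4 WT libraries or any of the 6 untreated libraries of the other lines (adjusted p up to 0.238). PDIA4 lost its call in DeltaRBR in 7 of 16, those without any of its 4 libraries, either untreated DeltaZ1 library or WT untreated replicate 2 (up to 0.172). MANF lost its call in WT without untreated replicate 1 or treated replicate 2 and in DeltaZ1 without untreated replicate 1 or treated replicate 2, and CRELD2 in WT without untreated replicate 1 (up to 0.0824). Fitted on its own 4 libraries DeltaZ1 had no call left for CRELD2, SEC24D or MANF (adjusted p from 0.165 to 0.209). CRELD2 had 0.50, 0.45 and 0.54 in the first 3 and 0.20 ± 0.094 in DeltaRBR (limma-voom adjusted p = 0.195). With 1 library left out at a time the calls ran from 9 (without WT untreated replicate 1) to 19 (without DeltaZ1 treated replicate 1), and the latter fit also called HSPA5 and SDF2L1 lower in DeltaZ1 (adjusted p = 0.0303 and 0.0345).

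HSPA5 was the exception at 6 h, for its spread. In the treated libraries it stood at 159 and 231 CPM in the WT line, at 238 and 86.2 in DeltaZ1, at 94.0 and 191 in DeltaZ10 and at 194 and 160 in DeltaRBR. In the untreated libraries it stood at 137 and 141, 155 and 169, 126 and 166, and 136 and 151 CPM in the same order of lines. DeltaZ1 treated replicate 2 and DeltaZ10 treated replicate 1 lay below every untreated library, 4 treated libraries lay above every untreated one, and the replicates of these lines went opposite ways. The SD of log2 CPM was 0.55 over the 8 treated and 0.15 over the 8 untreated libraries. For the other 9 members the SD over the treated libraries was at most 0.17.

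The mean effect on HSPA5 was 0.12 ± 0.20 on the log2 scale (limma-voom adjusted p = 0.646). Without the pair of low libraries, an alternative chosen after seeing the data, it was 0.43, a description only, since leaving out the lowest treated values raises it by construction. The same alternative brought SDF2L1 to 0.26 and DNAJB9 to 0.13, again as a description only. SDF2L1 too was lower in both left-out libraries than in the other 6 treated ones, which raises its value by construction. Of 2171 genes with a median CPM within 2-fold of HSPA5, 9 including HSPA5 had an SD at least as large. The low pair also differed in other genes, since 13.9% of all genes lay lower and 16.1% higher in both than in the other 6 treated libraries. Of the 10 members HSPA5 and SDF2L1 were lower there and none was higher. The mitochondrial genome gave 0.402 and 0.273% of the counts in the low pair, the lowest of the treated libraries, and 0.411 to 0.944% in the other 6. The part of this share in the HSPA5 level was not tested.

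The deletion lines were compared with the WT line. The added CTCF is under doxycycline control, and any doxycycline at 6 h is not settled. Line differences therefore cannot tell whether a zinc finger or the RNA-binding region of the added CTCF matters for these genes. Each line may also be 1 clone, so line and clone cannot be told apart. None of the 30 differences in effect (10 genes, 3 lines) was called by limma-voom, edgeR or DESeq2, and at an unadjusted p below 0.05 there were 2, SDF2L1 in DeltaZ1 (-0.66 ± 0.20 on the log2 scale, adjusted p = 0.148) and MANF in DeltaRBR (-0.29 ± 0.13). Of all genes 0.331% were called in DeltaZ1, 0.0432% in DeltaZ10 and 0.0% in DeltaRBR. The standard errors also set what could be seen. They ran from 0.083 (PDIA4) to 0.57 (HSPA5) on the log2 scale and the 95% interval of the HSPA5 difference in DeltaZ1 was -1.75 to 0.47, so differences of that size were not detectable here. Without DeltaZ1 treated replicate 1, 2 of the 30 were called lower.

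Over both treatments the lines also gave 0 of 30 calls by limma-voom, edgeR and DESeq2, beside 0.0935%, 0.0575% and 0.0% of all genes in DeltaZ1, DeltaZ10 and DeltaRBR. At an unadjusted p below 0.05 there were 2, MANF higher in DeltaZ1 (0.14 ± 0.062) and SEC24D lower in DeltaZ10 (-0.12 ± 0.050). Without DeltaZ1 treated replicate 1, 1 member was called higher. The comparisons share the libraries of the WT line.

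Genes whose log2 CPM followed the mean of the 10 members most closely were ranked by Pearson's r, as a description. Over the 12 libraries of the 24 h set they included CBX2 (r = 0.95, Spearman's rho = 0.69), APBA3 (0.94, 0.79), ZNF768 (0.94, 0.49) and FAM43A (0.93, 0.82). Over the 16 libraries of the 6 h set they included ARF6 (0.97, 0.99), RABIF (0.96, 0.95), UBAP1 (0.94, 0.89) and RRM2 (0.94, 0.95). Each set mixes treated and untreated libraries, and the points share library depth and scaling. The mean is also not a pattern that all members share. At 24 h r between members ran from -0.85 (HSPA5 and HERPUD1) to 0.94 (SDF2L1 and MANF). HSPA5 had the widest spread over the treated libraries at 6 h. Its r at 6 h was 0.68 with SDF2L1 and -0.15 to 0.28 with the other members.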

How the data were processed

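The analysis began from gene-level values for 28 SEM libraries. Reads had been trimmed (Trim Galore 0.6.3), aligned (STAR 2.7.9a, hg19) and quantified (RSEM 1.3.1) by the authors. They deposited RSEM expected counts, which are not normalized and were rounded here. The authors also deposited TPM, scaled by effective transcript length. The labels name a 3′ kit and the methods a total RNA kit, which bears on TPM, and strand use in counting is not given in the sources used here. Matrices that repeat the 6 h values were not used, and 92 spike-in entries held 0 counts.

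For each set (12 libraries at 24 h, 16 at 6 h) 1 limma 3.58.1 voom model with a mean per group was fitted in R 4.3.3, with TMM factors from edgeR 4.0.16. Genes above 1 CPM in at least 1 library were tested, and all 10 members passed. P-values were adjusted over all tested genes (Benjamini-Hochberg), with calls at 0.05. Scripts were tested on simulated data. As alternatives, edgeR's quasi-likelihood test and DESeq2 1.42.0 replaced limma, RLE factors or unscaled library sizes replaced TMM, the filter was removed or raised, the fit was limited to the compared groups, replicate number was added as a block, and each library was omitted once.

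The members and lists were chosen with earlier results of these data known. Genes named are the members and their paralogs, CTCF, ASNS, CHAC1, DDIT3, TRIB3, up to 4 genes a list that passed the test in WT cells given IAA with the smallest adjusted p, and the 5 genes a set most like the members. Others are marked where they appear. Some genes that this rule selects are not reported here. CD24 and PECAM1, of the marker lists, were not analysed here.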

Additional observations from a re-analysis of the deposited data

Results flagged for a closer look

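The effect of auxin at 24 h differed between WT SEM and CTCFAID2 cells (limma-voom, interaction of line and treatment, adjusted p at most 0.05) for 7 of the 10 ER stress genes, beside 20.9% of all genes called higher and 19.3% lower. With 1 library left out at a time CRELD2 kept its call in 2 of 12 fits and SEC24D lost its own in 3. The WT minus CTCFAID2 difference in log2 fold change was 0.94 for HERPUD1, 0.30 for HYOU1, 0.26 for XBP1, -0.40 for HSPA5, -0.28 for CRELD2, -0.26 for SEC24D and -0.21 for PDIA4. The same difference was 1.51 for ASNS, 2.43 for CHAC1, 1.28 for DDIT3 and 1.71 for TRIB3. Line, agent, dose and doxycycline cannot be told apart in it. Dixon's test was run in both CTCFAID2 groups of 4 libraries for 26 genes, the 10 members included, and no library stood apart in a member. Treated replicate 4 stood apart from the other treated libraries for ASNS (58.7 CPM, gap over range 0.887) and for SESN2 (17.7 CPM, gap over range 0.979). These were 2 of 52 groups, and chance flags about 1 in 20.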

How the results depend on the processing

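Of the members' fold changes under other settings with all libraries, or without the low HSPA5 pair, 634 kept their direction and their side of the threshold, 22 passed it newly, 9 no longer passed it and 5 changed sign. With 1 library left out, 1068 kept both, 25 passed newly, 48 no longer passed and 19 changed sign. Where this left 1 library in a group, that library was assumed to vary like the other groups. The cause of these changes was not tested.

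Without the filter, 2 rather than 4 members were lower in the difference of the 24 h effects, with CRELD2 (adjusted p = 0.0815) and SEC24D (0.0613) lost. In CTCFAID2 cells MANF was lost without scaling factors (0.12) and without the filter (0.085), and HERPUD1 was called under RLE factors (0.0499) and with only the compared groups (0.048). At 6 h SDF2L1 was called by edgeR (0.0394), DESeq2 (0.036) and without the filter (0.0463). Among other named genes, HSP90B1 and UBE2J1 lost their call in WT cells by edgeR (0.0541 and 0.0517).

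HSPA5 in DeltaZ1 was 0.0014 by edgeR, 0.0039 by DESeq2 and 0.56 without the low pair, and in DeltaZ10 it was 0.40 without that pair. DNAJB9 in DeltaZ1 was -0.11 without it, and SEC24C in CTCFAID2 cells was 0.013 without scaling factors.

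With 1 library left out, members called ranged from 1 to 2 higher in WT cells with IAA, from 2 to 5 lower in CTCFAID2 cells, from 2 to 4 lower in the difference of effects and from 0 to 2 lower over the single lines. They ranged from 0 to 2 lower for the effects of the deletion lines and from 0 to 1 higher for their levels. Amino acid genes ranged from 0 to 1 lower in WT cells and from 4 to 7 higher at 6 h. HSPA5 ranged from -0.062 to 0.30 in the 6 h mean, from -0.92 to 0.56 in DeltaZ1 and from -0.62 to 0.40 in DeltaZ10. DNAJB9 ranged from -0.060 to 0.10 in CTCFAID2 cells and from -0.11 to 0.35 in DeltaZ1, and HERPUD1 from -0.014 to 0.037 in the 6 h mean and from -0.16 to 0.043 in DeltaRBR. In WT cells with IAA the ranges were -0.11 to 0.068 for SEC24D, -0.056 to 0.00055 for MANF, -0.11 to 0.22 for SDF2L1, -0.0069 to 0.091 for SDF2, -0.098 to 0.00048 for SEC24C, -0.042 to 0.015 for HSPA8 and -0.010 to 0.047 for HSPA9. SEC24C ranged from -0.036 to 0.0037 in CTCFAID2 cells.

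Correlations of same-numbered deviations from the group means were weak and ran from -0.27 to 0.27. At 6 h they were 0.21 in WT, 0.27 in DeltaZ10, 0.19 in DeltaRBR and -0.14 in DeltaZ1. These values do not settle whether the replicate numbers pair the libraries. With the replicate number as a block, calls over all genes went from 2643 to 2357 in WT cells with IAA, from 8200 to 7988 in CTCFAID2 cells and from 7158 to 7049 at 6 h. Of the members' calls the block changed that of DNAJB9 at 6 h (adjusted p = 0.0337), and of the other named genes SRPR, KDELR2, SEC23B and LONP1 lost their call in WT cells (0.0642 to 0.084).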
